A study of Mus musculus with 18 samples.

Results

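CTCF and the genes of the cohesin complex were followed in nascent RNA from sorted mouse fetal liver cells. The 10 genes were given as a list of symbols and matched by symbol to the deposited count table, and all 10 were found among its 54232 gene identifiers. They are Ctcf, the ring subunits Rad21, Smc1a and Smc3, the paralogous subunits Stag1 and Stag2, the loader genes Nipbl and Mau2, and the paralogous regulators Pds5a and Pds5b. They were matched by name alone, and no level or fold change entered the matching. The members and the related gene lists were, however, chosen with earlier results of these data known. Every gene of the list passed the filter on low counts, with between 1064 and 37096 counts in each library.

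CTCF is a zinc finger protein that binds DNA at specific motifs and marks many borders between chromatin domains. Cohesin is a ring-shaped complex that is loaded on chromatin, extrudes loops of DNA until it meets CTCF bound in a blocking orientation, and also holds sister chromatids together after replication. In erythroid cells these proteins shape the contacts between enhancers and promoters, including those at the globin genes, while the cells go through their last divisions.

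Fetal livers of C57BL/6 embryos were taken at e12.5 to e13.5 of embryonic development, and cells were sorted by lineage markers, by CD71 (the transferrin receptor) and by Ter119 (a surface marker of maturing red cells). All 5 erythroid populations were lineage-negative: S0-Low was negative for Ter119 and is given as CD71 negative in one label and CD71 low in another, S0-Medium had medium CD71 without Ter119, S1 had high CD71 without Ter119, S2 had high CD71 and medium Ter119, and S3 was high for both. A further group, Lin+, held the lineage-positive cells, although its labels also call the cells primary erythroblasts. Sorted cells rested in culture and were then labelled with 500 µM 4-thiouridine (4sU) for 45 min, so that newly made RNA could be purified and sequenced, with 3 replicate libraries in each of the 6 groups. The labels name replicates by number and do not say which libraries came from separate litters or sorts, so p-values measure the spread between these libraries.

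Total counts ranged from 9452476 to 40567976 per library, with S0-Low replicate 3 the shallowest. Erythroid markers were higher in the later populations, and S0-Low and S0-Medium also held RNA of some genes listed as markers of other lineages. Which cells made this RNA, stem and progenitor cells among them, was not tested. Levels are in CPM, counts per 1000000 counts of the library. The summed level of 7 erythroid markers (Klf1, Alas2, Epor, Tfrc, Slc4a1, Hba-a1 and Hba-a2) lay between 445 and 933 CPM by library total in S0-Low, between 18400 and 23580 CPM in S3, and between 247 and 307 CPM in Lin+. The Lin+ libraries, although labelled as erythroblasts, were thus below every S0-Low library in this sum. The summed level of 6 myeloid markers lay between 473 and 860 CPM in S0-Low, at or under 0.763 CPM in S3, and between 2796 and 5272 CPM in Lin+. In S0-Low that sum came mostly from Mpo, only 3 of the 6 genes reached 10 counts in any S0-Low library, and Itgam was listed at 0 in every library. The 4 genes listed as lymphoid markers summed to between 109 and 216 CPM in S0-Low and to at most 0.214 CPM in S3. The S0-Low sum came mostly from Ptprc, and Cd3e was at 0 in the S0-Low libraries. In S0-Medium the myeloid sum lay between 16.2 and 205.0 CPM and the lymphoid sum between 7.79 and 59.6 CPM. The sum of 4 megakaryocyte markers lay between 41.5 and 170 CPM in S0-Low, between 87.5 and 154 CPM in S0-Medium and between 13.46 and 58.7 CPM in S3. Among them Itga2b, the gene of CD41, had mean levels of 90.0 and 89.3 normalised CPM in S0-Low and S0-Medium, although the lineage panel includes CD41. The endothelial markers Pecam1 and Cdh5 summed to between 61.6 and 161 CPM in S0-Low and to at most 8.79 CPM in S3, nearly all from Pecam1. The mean level of Cdh5 was 1.41 normalised CPM in S0-Low, and it was listed at 0 in S3. Hepatocyte markers summed to at most 11.5 CPM and macrophage markers to at most 2.67 CPM in S0-Low. Stem and progenitor markers (Cd34, Kit, Gata2 and Flt3) summed to between 947 and 1339 CPM in S0-Low and to at most 7.17 CPM in S3. Xist and the 4 Y-linked markers had counts in every library. Of these 5 genes Xist was called higher in S3 than in S0-Low (mean levels of 498 and 232 normalised CPM, edgeR adjusted p = 0.029) and none lower, with log2 fold changes from -0.96 for Kdm5d to 1.13 for Eif2s3y. With library totals none was called higher and 1 was called lower. The part of other lineages and of the sexes of the embryos in the differences between S0-Low and S3 was not tested, and in bulk samples fewer cells of a type cannot be told apart from less RNA per cell.

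The 10 genes lie on 6 chromosomes, and most of the promoter windows given for them are rich in CpG dinucleotides. In RefSeq on build GRCm38.p6, Ctcf lies on chromosome 8 from 105636474 to 105682922 and Rad21 on chromosome 15 from 51962604 to 51993538. Nipbl is on chromosome 15 as well, from 8289824 to 8465315. The ring gene Smc3 lies on chromosome 19 from 53600396 to 53645831, while Smc1a (152016428 to 152061973) and Stag2 (42149297 to 42277186) are on chromosome X. Stag1 spans 361 kb of chromosome 9 from 100597709 to 100958544, the longest of the 10 genes, and Mau2 spans 28.2 kb of chromosome 8 from 70014527 to 70042734, the shortest. Pds5a (65605719 to 65698236) and Pds5b (150673713 to 150810669) are both on chromosome 5. Promoter windows of 300 bases, from 250 bases before to 50 bases after an annotated start, were given for 7 of the 10 members, in 8 windows. They held between 21 and 55 CpG dinucleotides, except for a second Mau2 window with 1, against a median of 7 over 32851 promoters. A word of the factor YY1, GCCATNTT on either strand, was found in 4 of the 8 windows and in 6.05% of all promoters. Those windows are shown here because they hold that word, in capitals, and because they belong to 3 genes that were higher in S3 (Ctcf, Smc3 and Stag1) and to 1 that did not pass the test (Pds5b). All are on the plus strand, at chr8:105636288-105636587 for Ctcf, chr19:53600146-53600445 for Smc3, chr9:100643198-100643497 for Stag1 and chr5:150673577-150673876 for Pds5b.
Ctcf: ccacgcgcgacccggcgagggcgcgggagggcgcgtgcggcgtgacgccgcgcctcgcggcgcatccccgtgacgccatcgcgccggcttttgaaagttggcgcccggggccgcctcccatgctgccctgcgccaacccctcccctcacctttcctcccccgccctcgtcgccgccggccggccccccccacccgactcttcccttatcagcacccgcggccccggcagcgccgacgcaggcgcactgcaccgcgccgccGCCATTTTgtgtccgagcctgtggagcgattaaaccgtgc
Smc3: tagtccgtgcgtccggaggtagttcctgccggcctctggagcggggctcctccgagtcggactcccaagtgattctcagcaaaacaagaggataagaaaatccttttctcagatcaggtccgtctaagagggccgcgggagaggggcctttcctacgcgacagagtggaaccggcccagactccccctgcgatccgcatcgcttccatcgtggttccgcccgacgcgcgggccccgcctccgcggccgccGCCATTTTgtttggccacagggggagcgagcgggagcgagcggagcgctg
Stag1: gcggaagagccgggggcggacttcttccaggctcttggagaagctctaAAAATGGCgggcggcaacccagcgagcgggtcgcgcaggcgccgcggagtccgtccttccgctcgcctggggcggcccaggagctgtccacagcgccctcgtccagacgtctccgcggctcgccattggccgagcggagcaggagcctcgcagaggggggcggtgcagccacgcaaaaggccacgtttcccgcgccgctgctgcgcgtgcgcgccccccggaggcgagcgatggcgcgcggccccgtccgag
Pds5b: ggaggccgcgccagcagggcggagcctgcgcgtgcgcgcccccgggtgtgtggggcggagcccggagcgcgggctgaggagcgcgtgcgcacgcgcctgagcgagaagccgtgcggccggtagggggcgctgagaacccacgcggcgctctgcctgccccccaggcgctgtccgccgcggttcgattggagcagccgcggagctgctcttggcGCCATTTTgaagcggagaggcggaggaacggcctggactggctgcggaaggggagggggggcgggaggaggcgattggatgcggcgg
The word began at position +11 from the annotated start in Ctcf, at +1 in Smc3, at -37 in Pds5b and at -202 in Stag1, where it reads on the opposite strand. The windows of Ctcf, Pds5b and Stag1 belong to starts inside the gene spans given above.

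Words of other factors were searched in the same windows. A GATA word (AGATAA or TGATAA) was in the Ctcf window alone and in 18.6% of all promoters. The NF-Y word CCAAT was in windows of Smc1a, Stag1 and Pds5b (37.4% of all promoters), and the NRF1 word in those of Stag1 and Pds5b (4.6%). The ETS word CCGGAA was in the window of Smc1a (14.9%), the E2F word TTTNGCGC in that of Pds5a (1.38%), and the KLF word CCNCNCCC in 6 of the 8 windows (49.5%). Both strands were searched, and an NRF1 and an E2F word can share the letters GCGC. A matched word describes the sequence and not the binding of a factor.

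Nascent RNA of CTCF and of most cohesin genes was higher in S3, the most mature population, than in S0-Low, the earliest. Relative to libraries scaled by the trimmed mean of M-values (TMM), 7 of the 10 genes rose between S0-Low and S3 and none fell, against 13.4% of 16555 tested genes that rose and 22.4% that fell (edgeR's quasi-likelihood test, Benjamini-Hochberg adjusted p under 0.05). The median log2 fold change of the 10 genes was 1.16, and that of all tested genes was -0.54. The 7 genes were Ctcf, Rad21, Smc3, Stag1, Stag2, Nipbl and Mau2, whereas Smc1a, Pds5a and Pds5b did not pass. With only genes of at least 10 counts in every library, the medians were 0.90 for the members and -0.098 for all genes. There 5 members rose and none fell, beside 1526 of 7763 genes that rose and 1517 that fell. Levels below are CPM after TMM scaling (normalised CPM), and fold changes with their standard errors come from the edgeR model of the 15 erythroid libraries. The size and even the sign of these fold changes depend on how libraries are scaled.

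**Figure D1:**
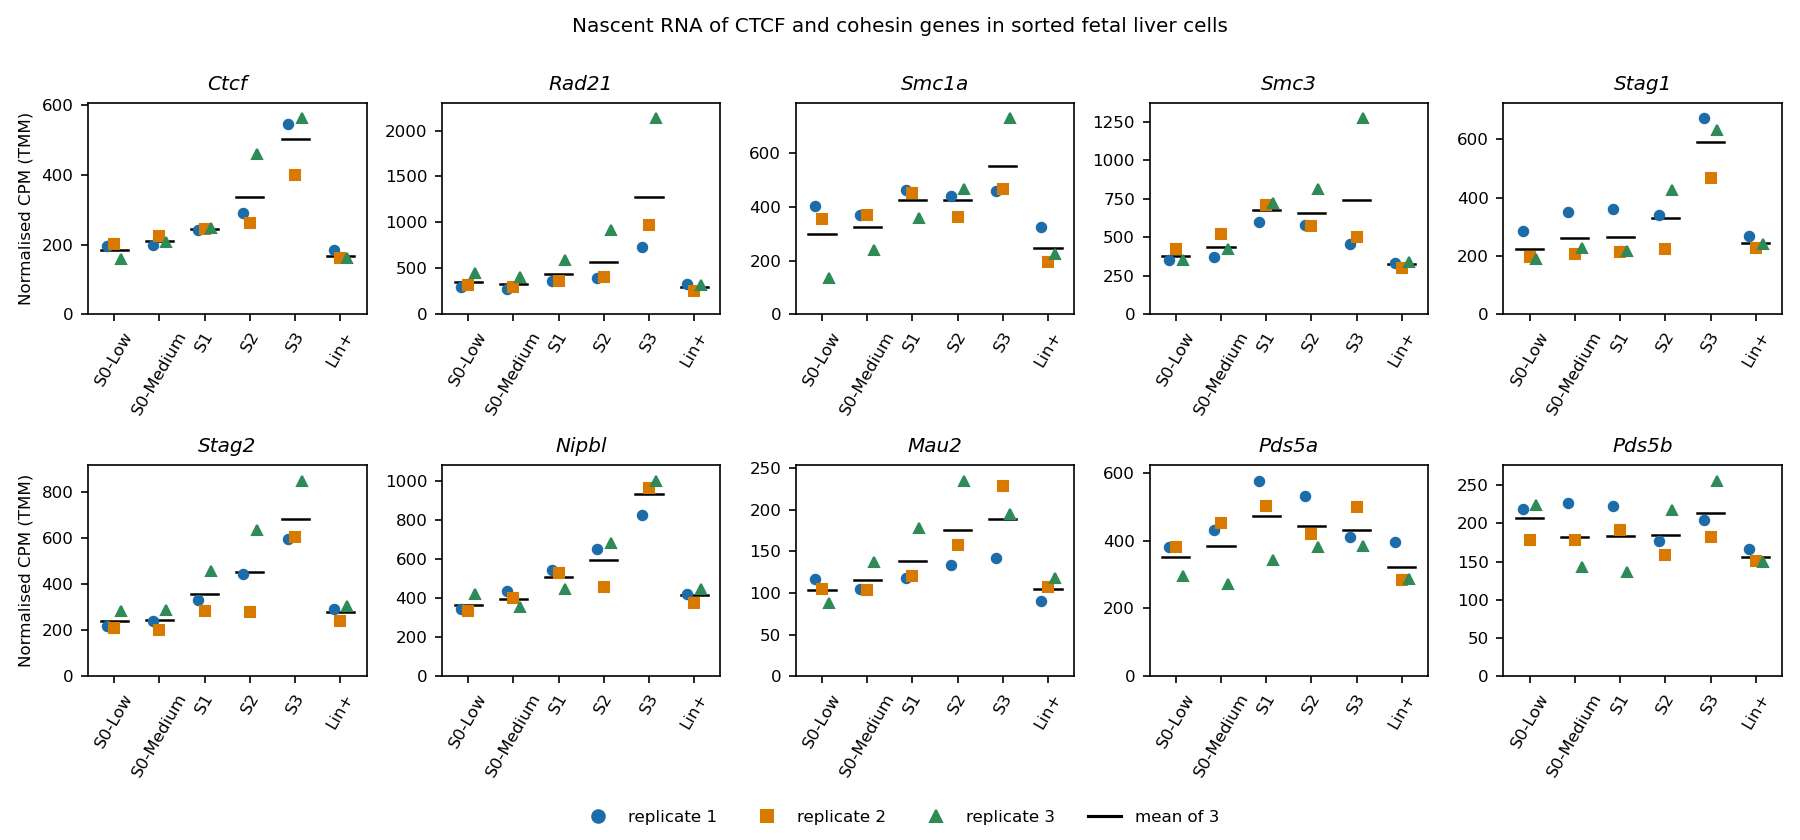
Normalised CPM (y axis, linear from 0, a separate scale for each gene) of the 10 genes in each of the 18 libraries, by population (x axis). Symbols mark the replicate numbers and bars the mean of 3 libraries. Ctcf rose from a mean of 184 in S0-Low to 501.5 in S3, whereas Pds5b had means of 207 and 214.

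Ctcf, the DNA-binding partner of cohesin at loop anchors, rose over the series. Its normalised CPM in replicates 1, 2 and 3 was 195, 200.2 and 158 in S0-Low, 199, 225 and 208 in S0-Medium, and 242, 245 and 248 in S1. It was 290.1, 263 and 460.2 in S2 and 545, 398 and 562 in S3. The mean was higher in each later population, the S3 libraries lay above all S0-Low, S0-Medium and S1 libraries, and S2 replicate 3 was within the range of S3. Between S0-Low and S3 Ctcf rose by 1.44 ± 0.27 on the log2 scale (SE, n = 3 and 3, edgeR adjusted p = 0.00097).

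Rad21, the kleisin subunit that closes the ring and is cut when sister chromatids separate, had the largest estimate with all libraries. Its libraries had 299, 321 and 444.5 normalised CPM in S0-Low, 358, 359 and 589.7 in S1, and 393, 404 and 921 in S2. In S3 the libraries had 734.5, 969 and 2131 normalised CPM. Replicate 3 was the highest Rad21 library in each of the 5 erythroid populations, and all S3 libraries except replicate 1 lay above every S2 library. Rad21 rose by 1.85 ± 0.44 on the log2 scale from S0-Low to S3 (edgeR adjusted p = 0.0046), and by 1.25 (adjusted p = 0.032) without S3 replicate 3. Without that library the estimate of Rad21 lay below those of Ctcf (1.34), Stag1 (1.33), Stag2 (1.32) and Nipbl (1.27).

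The subunits that pair to form the body of the ring, Smc1a and Smc3, had smaller estimates than Rad21. Smc3 had 352, 425 and 355 normalised CPM in S0-Low, 598, 708 and 725 in S1 and 459, 506 and 1273 in S3. Its S1 libraries lay above those of S0-Low and S0-Medium, and in S3 replicates 1 and 2 were lower than every S1 library while replicate 3 was far higher. Smc3 rose by 0.98 ± 0.35 from S0-Low to S3 on the log2 scale (edgeR adjusted p = 0.041), and the value without S3 replicate 3 was 0.34 (adjusted p = 0.39). The Smc3 call was also lost without S0-Low replicate 1, 2 or 3, at log2 fold changes of 0.88, 1.02 and 0.90. Smc1a had 403.5, 353 and 136 normalised CPM in S0-Low and 457.5, 465 and 728 in S3. S0-Low replicate 3, the shallow library, was its lowest value, and the groups did not overlap. Its log2 fold change of 0.88 ± 0.36 did not pass the threshold (edgeR adjusted p = 0.066), and the value was 0.49 without S0-Low replicate 3.

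Stag1 and Stag2 encode alternative subunits, of which a cohesin ring carries either one, and both rose. Stag1 had 285, 196 and 191 normalised CPM in S0-Low and 672, 466 and 634 in S3, with 360, 215 and 216 in S1. Most of its difference lay between S2 and S3, where every S3 library was above every S2 library. Stag1 rose by 1.40 ± 0.34 on the log2 scale from S0-Low to S3 (edgeR adjusted p = 0.0054). Stag2 had 219, 212 and 285 normalised CPM in S0-Low, 443, 279 and 634 in S2 and 598, 607 and 850.2 in S3. Its S3 libraries were above all S0-Low and S1 libraries and overlapped with those of S2. Stag2 rose by 1.52 ± 0.33 (edgeR adjusted p = 0.0025).

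The loader of cohesin is a dimer of Nipbl, which also drives extrusion by the ring, and Mau2, which stabilises it. Nipbl had 342, 336 and 422 normalised CPM in S0-Low, 545, 525.5 and 445.5 in S1, 651, 457 and 680.4 in S2 and 824, 962 and 999.8 in S3. No S3 library overlapped with any other population, and Nipbl rose by 1.34 ± 0.26 on the log2 scale from S0-Low (edgeR adjusted p = 0.0010). Mau2 had 117, 105 and 88.3 normalised CPM in S0-Low and 142, 228 and 195 in S3. Its libraries overlapped between S2 and S3 but not between S0-Low and S3, and Mau2 rose by 0.86 ± 0.30 (edgeR adjusted p = 0.038). The Mau2 call was lost without S0-Low replicate 1, 2 or 3 (log2 fold changes of 0.90, 0.81 and 0.71) and without S3 replicate 2 or 3 (0.70 and 0.82). The calls of both Smc3 and Mau2 were lost with a filter of at least 10 counts in every library (edgeR adjusted p = 0.12 and 0.10), with the 6 libraries alone (0.21 and 0.14) and with size factors from relative log expression (0.070 and 0.062), and that of Mau2 without a filter (0.15).

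Pds5a and Pds5b bind the ring and, depending on their partners, either keep it on chromatin or help to release it. They were the only members whose log2 fold change from S0-Low to S3 was under 0.5. Pds5a had 380.1, 382 and 296 normalised CPM in S0-Low, 576.5, 501 and 341 in S1 and 410.4, 498 and 383 in S3. Its mean was highest in S1, replicate 3 was the lowest library in every erythroid population, and the S3 libraries lay just above those of S0-Low. Pds5b had 218, 179 and 224 normalised CPM in S0-Low, 223, 191 and 136.5 in S1 and 204, 182 and 256 in S3, with full overlap of the groups. The log2 fold changes from S0-Low to S3 were 0.29 ± 0.29 for Pds5a (edgeR adjusted p = 0.45) and 0.05 ± 0.28 for Pds5b (adjusted p = 0.91), and both turned negative under another scaling.

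Library scaling set the sign for some of these genes. TMM factors over the 18 libraries were 1.10, 1.19 and 1.27 for S0-Low and 0.735, 0.677 and 0.579 for S3, so that the same counts give different fold changes when libraries are scaled by their totals alone. With library totals no member rose and 1 fell (6.98% of all tested genes rose and 37.6% fell), and the median log2 fold change was 0.28 for the members and -1.36 for all tested genes. Under that scaling the log2 fold changes were 0.93 for Rad21, 0.65 for Stag2, 0.60 for Ctcf, 0.57 for Stag1 and 0.48 for Nipbl, none of them past the threshold. Smc3, Smc1a and Mau2 lay between 0.02 and 0.07, Pds5a was at -0.54, and Pds5b fell by 0.81 (edgeR adjusted p = 0.021). A change of scaling moves the log2 fold changes of all genes by nearly the same amount, so the order of the members was all but fixed between the scalings. Relative to the median of all tested genes, the values ran from 0.59 for Pds5b to 2.39 for Rad21 with TMM. With size factors from relative log expression (RLE), 5 genes rose and none fell (12.1% and 24.8% of genes), and Smc3 and Mau2 no longer passed. DESeq2 called 6 genes higher and none lower (15.0% and 29.3%), without Smc3. When libraries were blocked by number, 8 genes rose and none fell (15.9% and 26.4%), Smc1a being the addition. With the block and library totals together, Ctcf, Rad21, Stag1, Stag2 and Nipbl rose while Pds5a and Pds5b fell (8.81% and 41.8%). Leaving the globin genes out before scaling kept the count at 7 higher, beside 2214 of 16545 genes higher and 3711 lower.

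**Figure D2:**
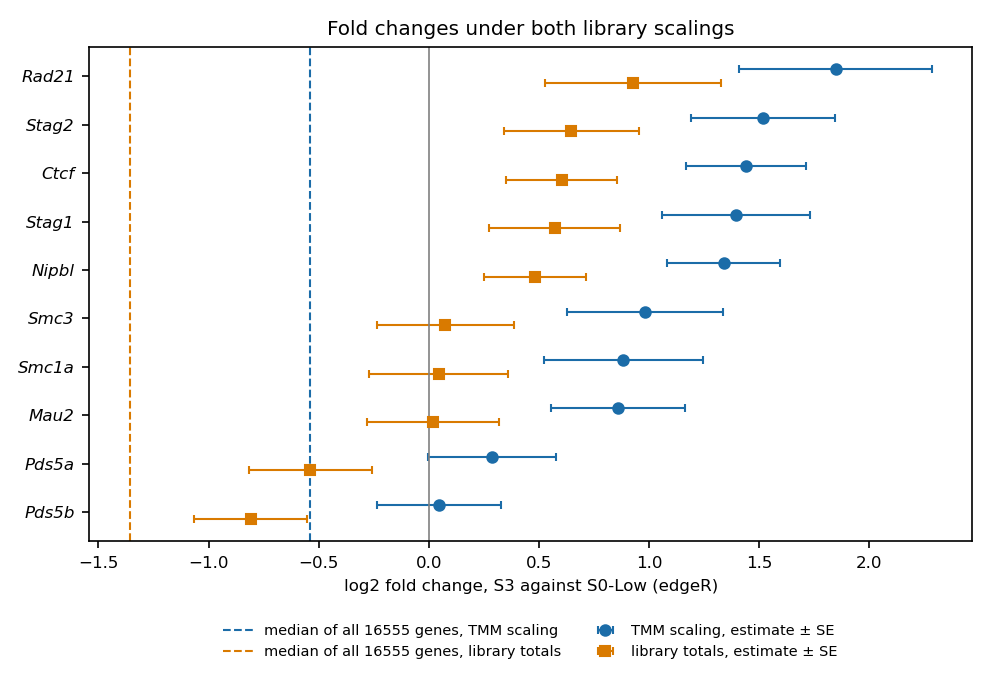
log2 fold change of each member between S0-Low and S3 (x axis) from edgeR with TMM scaling (circles) and with library totals (squares), with bars of 1 standard error and dashed lines at the median of all tested genes. The change of scaling moves all members together, Rad21 from 1.85 to 0.93 and Pds5b from 0.05 to -0.81.

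Ranges of the libraries were also compared, without a model. In normalised CPM, every S3 library was above every S0-Low library for 9 of the 10 genes, all but Pds5b, against 15.5% of 17755 genes, and below for none (24.4% of genes). In CPM by library totals this held for 4 genes (Ctcf, Stag1, Stag2 and Nipbl; 8.16% of genes), while every S3 library was below every S0-Low library for Pds5a and Pds5b (36.1% of genes). Between S2 and S3, every S3 library was above every S2 library in normalised CPM for Stag1 and Nipbl (8.42% of genes) and below for none (13.3%), and by library totals above for none (4.44%) and below for Pds5b (21.3%). Together the 10 genes took between 0.309% and 0.332% of all counts in S0-Low, between 0.358% and 0.464% in S3 and between 0.272% and 0.314% in Lin+. Within that sum the share of Rad21 was 10.6%, 11.8% and 17.1% in S0-Low and 14.5%, 18.4% and 26.6% in S3. The share of Pds5b went from 7.76%, 6.59% and 8.61% to 4.04%, 3.45% and 3.19%, without overlap of the groups.

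Over the whole series of populations the members covered unequal ranges. The difference between the highest and the lowest population mean of the fit was 1.97 for Rad21, 1.52 for Stag2 and 1.44 for Ctcf on the log2 scale, and 0.42 for Pds5a and 0.23 for Pds5b. The median over the 10 genes was 1.16, and over all tested genes it was 1.41. For 1.63% of tested genes the range was smaller than that of Pds5b, and for 6.74% it was smaller than that of Pds5a. The tested genes were not matched to the members for level. When any difference among the 5 populations was tested at once, Ctcf, Rad21, Stag1, Stag2 and Nipbl passed (5 of 10, against 24.6% of all tested genes). With library totals none of the 10 passed this test (28.4% of genes did), and with the block and library totals together Rad21, Stag2 and Pds5a passed (38.3% of genes). In edgeR's test the Stag1 call was lost without S0-Low replicate 2 (adjusted p = 0.052) or S3 replicate 1 (0.094), and without S3 replicate 3 both Stag1 (0.077) and Rad21 (0.081) were lost.

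The single steps of the series asked where the difference arose. No member passed between S0-Low and S0-Medium, between S0-Medium and S1 or between S1 and S2, and neither did any other gene in edgeR's test (0.0% of 16555 genes at each step). No member had an unadjusted p under 0.05 in these steps either, and DESeq2 called no member, although it called 47, 401 and 147 genes. With the replicate block, edgeR called 0.139%, 0.344% and 0.0% of genes at these steps and again no member, while Stag2 (0.53) and Smc3 (0.61) had an unadjusted p under 0.05 between S0-Medium and S1. The comparison of S3 with S2 was taken as paired by the rule given below. There edgeR with the replicate number as a block called 4 members higher (Rad21, Stag1, Stag2 and Nipbl, against 7.3% of genes). Without the block no member passed in edgeR's test, against 3.26% of genes that rose and 6.09% that fell. In that fit Ctcf, Rad21, Stag1 and Nipbl had an unadjusted p under 0.05. Rad21 had the largest estimate, 1.16 ± 0.43 on the log2 scale (edgeR adjusted p = 0.099), followed by Stag1 at 0.84 ± 0.33 (0.12) and Nipbl at 0.65 ± 0.25 (0.12). Smc3, Mau2 and Pds5a had estimates of 0.19, 0.11 and -0.04. DESeq2, also without a block, called 4 members higher in S3 than in S2 (Ctcf, Rad21, Stag1 and Nipbl, against 7.79% of genes). Without S2 replicate 3, the edgeR test called Ctcf (0.85, adjusted p = 0.048) and Rad21 (1.67, adjusted p = 0.020), in a fit that called 850 of 17700 genes higher and 1525 lower. Without S3 replicate 3 the Rad21 estimate was 0.56 (edgeR adjusted p = 0.45), below those of Stag1 (0.77) and Nipbl (0.57), and without that library or without S2 replicate 2 no member had an unadjusted p under 0.05. The block with library totals called Rad21 higher and Pds5a lower in S3 than in S2 (4.2% and 21.5% of genes). The comparisons with S0-Low and with S2 share the S3 libraries.

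Ratios of counts within a library do not depend on scaling, and they were taken for 5 pairs of partners. With all libraries the ratio of Rad21 to Smc3 changed most between S0-Low and S3. Without S3 replicate 2 or without S0-Low replicate 1 that of Rad21 to Wapl changed more. The log2 value of Rad21 to Smc3 in replicates 1, 2 and 3 was -0.23, -0.40 and 0.32 in S0-Low, -0.74, -0.98 and -0.30 in S1 and 0.68, 0.94 and 0.74 in S3. The S3 libraries lay above all others, including Lin+ at -0.03, -0.21 and -0.10. From S0-Low to S3 the mean log2 ratio was higher by 0.89, a 1.85-fold difference in the ratio. The exact permutation test, two-sided, gave p = 0.10, which 3 libraries against 3 cannot go below, and 0.25 after adjustment over the 5 ratios.

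The ratio of Rad21 to Wapl, the gene of the factor that opens the ring and takes it off chromatin, was also highest in S3. Its log2 value was -0.07, -0.42 and -0.25 in S0-Low, -0.87, -1.03 and -0.47 in S1 and 0.58, 0.26 and 0.64 in S3. The S3 values were above 0 and the S1 values below it, with S2 spread between -1.03 and 0.17. The difference between S3 and S0-Low was 0.74 (exact permutation p = 0.10, adjusted p = 0.25). Wapl itself rose from S0-Low to S3 by 1.07 ± 0.35 on the log2 scale with TMM (edgeR adjusted p = 0.026), and its normalised CPM of 492, 808 and 1368 in S3 followed the same order of replicates as Rad21. With library totals the Wapl estimate was 0.15 (edgeR adjusted p = 0.71), with overlapping libraries. The Wapl call was also lost without S3 replicate 3 (0.60) and without S0-Low replicate 1 (0.83) or 2 (1.02).

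The paralogous and loader pairs kept overlapping ratios. The log2 ratio of Stag1 to Stag2 was 0.38, -0.11 and -0.58 in S0-Low and 0.17, -0.38 and -0.42 in S3, a mean difference of -0.11 (exact permutation p = 0.70). In each of these groups replicate 1 had the highest ratio and replicate 3 the lowest, and without S0-Low replicate 1 the difference was 0.13. The log2 ratio of Pds5a to Pds5b was 0.77 ± 0.35 (SD, n = 3) in S0-Low, 1.36 ± 0.03 in S1 and 1.01 ± 0.43 in S3. The difference between S3 and S0-Low was 0.25 (exact permutation p = 0.50), but 0.030 without S3 replicate 2, 0.066 without S0-Low replicate 3, 0.41 without S0-Low replicate 2 and 0.46 without S3 replicate 3. For Nipbl to Mau2 the log2 ratio was 1.82 ± 0.38 in S0-Low and 2.32 ± 0.23 in S3, a difference of 0.50 (exact permutation p = 0.20).

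**Figure D3:**
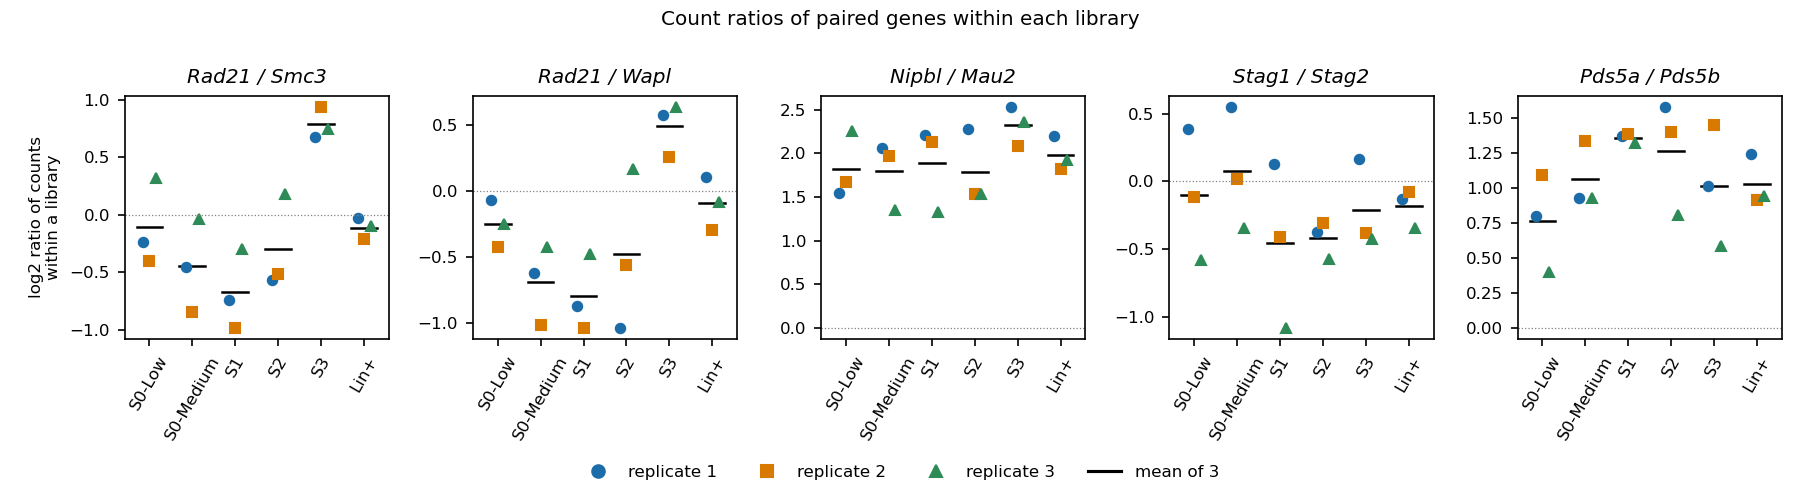
log2 ratio of counts within each library (y axis, a separate scale for each pair) for 5 pairs of genes by population (x axis), with symbols for replicate numbers and bars for the mean of 3. For Rad21 to Smc3 and Rad21 to Wapl the S3 libraries lie above those of every other group, while the other ratios overlap between S0-Low and S3.

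Pds5b, the member with the smallest difference under TMM, was also used as a reference for ratios chosen after the values were seen. The mean log2 ratio of Rad21 to Pds5b was 0.76, 0.84, 1.23, 1.53 and 2.44 from S0-Low to S3, and that of Stag2 to Pds5b was 0.20, 0.43, 0.96, 1.22 and 1.67. Ctcf to Pds5b had a mean log2 ratio of -0.17, 0.23, 0.45, 0.84 and 1.23 in the same order. For all these ratios the S3 libraries did not overlap with S0-Low, and each mean was higher than that of the population before it. The log2 ratio of Ctcf to Rad21 was -0.93 ± 0.49 in S0-Low and -1.21 ± 0.75 in S3, with overlap. These values are descriptions, since the reference was picked for its course.

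Compared per length of the gene's exons, the levels of the members kept a broad order. Exon lengths were those of the GENCODE M1 annotation (build NCBIM37, used for lengths alone), and the unit is normalised CPM per kb. In S0-Low the mean level was 98.4 ± 21.8 (SD, n = 3) for Rad21, 84.7 ± 11.8 for Pds5a and 68.0 ± 7.4 for Smc3, and these neighbours overlapped. Next came Smc1a at 51.6, Nipbl at 41.6, Ctcf at 38.0 and Stag2 at 28.9, again with overlap between neighbours, and below Stag2 without overlap Pds5b at 22.0, Stag1 at 21.8 and Mau2 at 19.3. In S3 Rad21 led at 355 ± 208, followed by Smc3 at 134 ± 82, Nipbl at 105, Pds5a at 104, Ctcf at 103 and Smc1a at 95.4, and each of these overlapped with the next. Stag2 at 82.8, which overlapped with Smc1a, Stag1 at 57.5 and Mau2 at 35.1 followed without overlap between Stag2 and Stag1 or between Stag1 and Mau2, and Pds5b was last at 22.8, overlapping with Mau2. Rad21 stood at the top in S0-Low, S2, S3 and Lin+. In S1 the highest mean was that of Smc3 (122 against 121 for Rad21, with overlap), and in S0-Medium that of Pds5a (92.4 against 90.4, with overlap). How introns entered the counts is not stated, so a level per exon length is only a rough guide for nascent RNA.

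Lin+ cells had the members at levels close to those of S0-Low. No member differed between Lin+ and S0-Low in edgeR's test (0.496% of 17755 genes were higher in Lin+ and 0.22% lower), none had an unadjusted p under 0.05, and neither DESeq2 nor edgeR with the replicate block called one. The log2 fold changes ran from -0.41 ± 0.26 for Pds5b to 0.23 ± 0.30 for Stag2. Ctcf had 184, 161 and 161 normalised CPM in Lin+ and Rad21 had 326, 259 and 321. Ctcf in Lin+ lay within the S0-Low range, Rad21 reached below it, and neither gene overlapped with S3.

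Against S3, 8 of the 10 members were lower in Lin+ and none was higher (14.1% and 28.2% of 17755 tested genes). The log2 fold change was -2.08 ± 0.41 for Rad21 (edgeR adjusted p = 0.00071) and -1.57 ± 0.25 for Ctcf (0.00011). Stag1, Stag2, Nipbl, Smc3 and Smc1a lay between -1.29 and -1.15, Mau2 was at -0.84 ± 0.29 (edgeR adjusted p = 0.026), and Pds5a (-0.42) and Pds5b (-0.46) did not pass. With library totals only Ctcf (-0.78) and Rad21 (-1.22) stayed lower in Lin+ (7.54% of genes), and the estimates of Pds5a and Pds5b turned to 0.35 and 0.34. The Mau2 call was lost with RLE factors (7 members lower, beside 2179 of 17755 genes) and with no filter (7, beside 2229 of 30157). With at least 10 counts in every library those of Smc1a and Mau2 were lost (6 members lower, beside 1688 of 7734 genes). Without S3 replicate 3 the calls of Smc1a (-0.90), Smc3 (-0.56) and Mau2 (-0.81) were lost. Without Lin+ replicate 2 those of Smc1a (-0.99) and Mau2 (-0.84) were lost, without Lin+ replicate 3 that of Smc1a (-1.07), and without Lin+ replicate 1 or S3 replicate 2 that of Mau2 (-0.73 and -0.63). In normalised CPM every Lin+ library was below every S3 library for 9 members, all but Pds5a (17.3% of genes), and above for none (36.8%). By library totals this held for Ctcf, Rad21, Stag1, Stag2 and Nipbl (9.88%), and Pds5b was above (49.5%). This comparison shares the S3 libraries with those above, and the erythroid and myeloid marker levels given above differ between Lin+ and S3 as well. Their part in the result was not tested.

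Most regulators of cohesin outside the list were also higher in S3. Of 9 such genes, 6 rose from S0-Low to S3 and none fell (13.4% and 22.4% of all tested genes), with a median log2 fold change of 1.43. Esco2, which acetylates cohesin during replication, rose by 3.38 ± 0.44 (edgeR adjusted p = 5.6e-05), with 53.2, 62.9 and 28.9 normalised CPM in S0-Low and 414, 342 and 759.5 in S3. Sgo1 and Sgo2a, which protect cohesin at centromeres, rose by 2.12 and 1.90, and Cdca5 (sororin), which stabilises cohesin on replicated DNA, rose by 1.44. The Cdca5 libraries overlapped, with 55.2 to 74.2 normalised CPM in S0-Low and 69.9 to 269 in S3. Outside the naming rule, and picked after their values were seen, Espl1 (separase), which cuts Rad21 protein at anaphase, rose by 1.43, and Esco1, Hdac8 and Pttg1 did not pass, with estimates of 0.39, -0.24 and 1.10. With library totals 3 of the 9 rose and none fell (6.98% and 37.6% of genes).

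Most condensin and SMC5/6 genes, whose products compact and repair chromosomes, were higher too. Of 10 genes 9 rose (13.4% of all tested genes), and the median log2 fold change was 2.04. Under library totals 8 of 10 rose (6.98%). Ncaph (2.93 ± 0.39), Ncapd3 (2.61 ± 0.38), Smc4 (2.60 ± 0.36) and Ncapg2 (2.41 ± 0.38) had the largest values, and Smc5 did not pass (0.26). Smc4, a core condensin subunit, had 311, 418 and 372 normalised CPM in S0-Low, 621, 620.2 and 1141 in S2 and 1883, 1614 and 3167 in S3. Every S3 library was above every S2 library, and replicate 3 was the highest of its population in S1, S2 and S3.

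Other looping and architectural factors changed in both directions. Of 9 tested genes, 4 rose and 1 fell from S0-Low to S3 (13.4% and 22.4% of all tested genes), with a median of 0.43 against -0.54 for all tested genes. Under library totals none rose and 2 fell (6.98% and 37.6%). Patz1, a zinc finger factor, fell by 3.35 ± 0.30 (edgeR adjusted p = 3.6e-06), from 138, 156 and 158 normalised CPM in S0-Low to 15.4, 13.47 and 15.3 in S3. Lmo2, a bridging protein of the erythroid GATA1 complex, rose by 1.51 ± 0.47, and Zfp143, which binds at many promoters, by 1.41 ± 0.32. Yy1, a zinc finger factor linked to contacts between promoters and enhancers, rose by 0.86 ± 0.28 (edgeR adjusted p = 0.025), and Maz, a zinc finger factor named after its value was seen, by 0.84 ± 0.31. Ldb1, the dimerising partner in that complex, had 189, 211 and 277 normalised CPM in S0-Low and 85.5, 140 and 170 in S3, a difference of -0.78 ± 0.41 that did not pass (edgeR adjusted p = 0.15). Ldb1 was called lower with library totals (-1.67, edgeR adjusted p = 0.0061) and with the replicate block (-0.81, adjusted p = 0.0076). Adnp was listed at 0 in all 18 libraries.

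**Figure D4:**
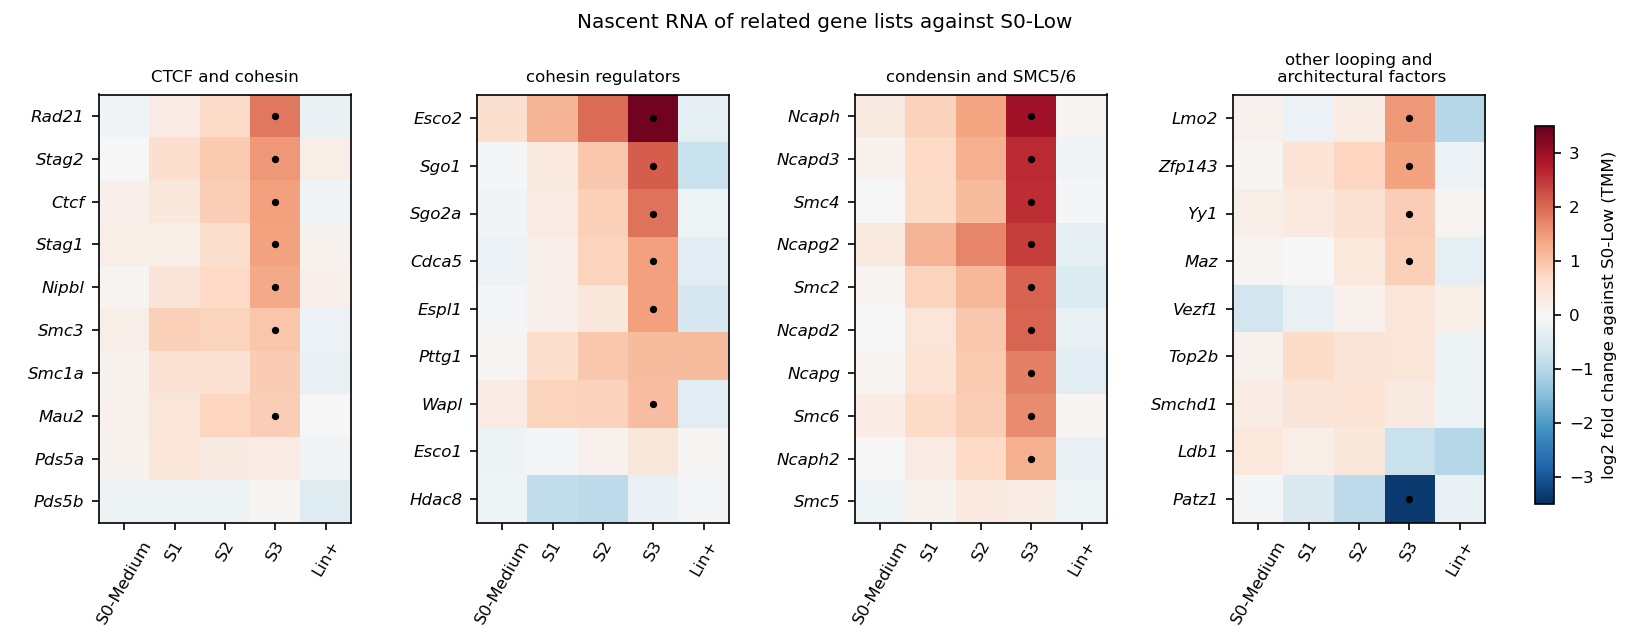
Heat map of edgeR log2 fold changes against S0-Low (colour scale, TMM) for the members and 3 related lists, by population (x axis), with Lin+ from the fit of all 18 libraries. Dots mark an adjusted p under 0.05 and were drawn for S0-Medium, S3 and Lin+ only. In S3 the dots cover 7 of the 10 members, 6 of 9 cohesin regulators and 9 of 10 condensin and SMC5/6 genes, all higher. Of all tested genes 13.4% were higher and 22.4% lower. With library totals 0 members were higher and 1 lower, and 3 cohesin regulators and 8 condensin and SMC5/6 genes were higher (6.98% and 37.6% of genes).

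Of the germline counterparts of these genes, 3 of 5 were at or near 0. Ctcfl, the testis paralog of Ctcf, and Rad21l, a meiotic kleisin, had group means of at most 0.0153 and 0.0266 normalised CPM. Smc1b, the meiotic form of Smc1a, had group means of at most 0.442 normalised CPM. The group mean of Rec8, the meiotic kleisin, ranged from 1.40 in Lin+ to 8.58 in S0-Medium, and Stag3, the meiotic form of Stag1 and Stag2, from 8.53 in S1 to 18.1 in S3. Of the 5 genes, Rec8 and Stag3 were tested between S3 and S0-Low and neither passed.

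The genes whose course over the 18 libraries was most like that of the members were named by the correlation of log2(normalised CPM + 0.5) among 11139 genes. For Ctcf these were Esco2 (Pearson r = 0.98), Tmem183a (0.974) and Lin54 (0.972), and for Rad21 they were Ndc80 (0.984), Kif11 (0.984) and Dlgap5 (0.982). Ndc80, Kif11 and Dlgap5 are known for roles on the mitotic spindle and at kinetochores. Among the members, Nipbl (0.884, rank 527 of the 11139 genes), Stag2 (0.871, rank 634), Rad21 (0.859, rank 737) and Stag1 (0.844, rank 868) were nearest to Ctcf. Pds5a (0.393) and Pds5b (0.411) were farthest. For Rad21 the nearest member was Stag2 (0.924, rank 210) and the farthest was Pds5a (0.0753). Many genes outside the list were thus nearer than any member. The points share libraries, depth and the differences between groups, so these values are descriptions without a test.

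The spread between replicates of the members was lower than the median over all tested genes, which were not matched to them for level. Each member had at least 1064 counts in every library, whereas 7763 of the 16555 tested genes had at least 10. Their biological coefficient of variation in the edgeR fit lay between 0.263 for Nipbl and 0.386 for Rad21, against a median of 0.761 over all tested genes. Replicate 3 departed from the others in the same direction in all 5 erythroid populations, higher for Rad21 and lower for Pds5a. The summed erythroid marker level was likewise highest in replicate 3 in all 5 populations, at 933, 2013, 5540, 9418 and 23580 CPM from S0-Low to S3. Its part in the departures of the members was not tested.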

How the data were processed

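Nascent RNA was measured in 18 libraries. The deposited table holds raw counts per gene, one column per library; per the labels the libraries were stranded and made with 14 PCR cycles, and the submitters' processing notes name build GRCm38 and kallisto 0.43.0. The transcript set, and how introns were counted, are not given in the sources used here. Whole-number counts were used as deposited, and samples were grouped by their labels.

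The members and gene lists were chosen with earlier results of these data known. One marker gene is not reported here and is left out of its summed level. Genes were filtered with filterByExpr, scaled by TMM and tested with edgeR 4.0.16 (glmQLFit and glmQLFTest, R 4.3.3) on the 15 erythroid libraries (16555 genes), or on all 18 for comparisons with Lin+ (17755 genes), with Benjamini-Hochberg adjustment over all tested genes. Genes named were the members, the 4 with the largest absolute log2 fold change between S3 and S0-Low of each related list, Wapl, Ldb1 and Yy1, and the 3 genes most like Ctcf and Rad21 in course among those with a mean of at least 100 normalised counts. Alternatives were DESeq2 1.42.0, RLE factors, library totals, other filters, robust fitting, globin genes left out, a replicate block, other sets of libraries and each replicate left out. The block with library totals, and the ratios to Pds5b and of Ctcf to Rad21, were added after the data were seen. Ratios used a pseudocount of 0.5 and exact permutation tests (scipy 1.17.1). The edgeR test with TMM was tried on simulated counts, and the exact tests on short sets of values with known answers.

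Same-numbered libraries were checked for pairing by the correlation of their deviations from group means. A comparison was taken as paired where all 3 numbers gave over 0.1. The values were 0.17, 0.256 and 0.313 for S3 with S2, and had a mean of 0.331, 0.514 and 0.491 at the earlier steps and 0.24 for Lin+ with S0-Low, all of them paired. S3 with S0-Low (0.0806, 0.131 and 0.105) and Lin+ with S3 (0.0905, 0.121 and 0.16) did not meet this, so their block fits are alternatives only. What a number stands for was not stated. No pair of replicates agreed within sampling noise (chi-square per degree of freedom of 79.3 or more). Depth of 9452476 counts or more gave every member at least 1064 counts per library, so counting error was small beside the spread of replicates.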

Additional observations from a re-analysis of the deposited data

How the results depend on the processing

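With library totals 1 member was called between S3 and S0-Low (Pds5b, lower), 0 across the 5 populations (28.4% of genes) and 2 between Lin+ and S3 (7.54% of genes), and the members' median log2 fold change was 0.28 for S3 against S0-Low and -0.027 against S2. Against S0-Low Pds5a turned to -0.54 and Pds5b to -0.81, and against S2 Smc1a turned to -0.14, Smc3 to -0.37, Mau2 to -0.39 and Pds5b to -0.29. For Lin+ against S3, Pds5a and Pds5b turned to 0.35 and 0.34. The replicate block with library totals called 2 members between S3 and S2 (Rad21 higher, Pds5a lower; 4.2% and 21.5% of genes) and 3 across the populations (38.3%). Its medians were 0.30 against S0-Low and -0.014 against S2, with -0.56 for Pds5a and -0.81 for Pds5b against S0-Low, and -0.13 for Smc1a, -0.42 for Smc3, -0.37 for Mau2 and -0.30 for Pds5b against S2. Between S3 and S2 the replicate block alone called 4 members, DESeq2 4 and no filter on low counts 1 (834 of 28888 genes higher). Of all genes, 1548 passed between S3 and S2, against 3332 with DESeq2, 3074 with the block, 2553 with library totals and 98 with the 6 libraries alone. Against S0-Low, Pds5b was at -0.071 with DESeq2 and with RLE, -0.21 with at least 10 counts in every library (members' median 0.90, 5 called beside 1526 of 7763 genes higher), -0.014 with no filter (6 called beside 2125 of 28888) and -0.14 with the 6 libraries alone (5 called beside 1404 of 13423). Against S2, Pds5a was at 0.071 with DESeq2 and with RLE. The 6 libraries alone called 5 members lower in Lin+ than in S3, beside 1881 of 15043 genes lower.

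Leaving out 1 library at a time gave 5 to 7 members called between S3 and S0-Low, beside 4344 to 5774 genes. It gave 0 to 2 between S3 and S2 (692 to 2375 genes), 3 to 5 across the populations (3293 to 4280 genes) and 5 to 8 between Lin+ and S3 (5971 to 7167 genes). Against S0-Low, single log2 fold changes ran from -0.11 to 0.15 for Pds5b, from 0.12 to 0.35 for Pds5a and from 0.49 to 1.11 for Smc1a. Against S2 they ran from -0.46 to 0.43 for Smc3, from -0.066 to 0.36 for Mau2 and from -0.16 to 0.10 for Pds5a. The Stag1 to Stag2 log2 difference ran from -0.35 to 0.13. The cause of these changes was not tested. Every one of the 15 erythroid libraries correlated best with a library of its own number. With 3 libraries a group, outlying libraries were not tested.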
